A study of Mus musculus with 6 samples.

Results

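The sarcomeric myosin heavy chain genes encode the motor proteins of the thick filament in striated muscle. The 8 genes described here (Myh1, Myh2, Myh3, Myh4, Myh6, Myh7, Myh7b and Myh8) were chosen by name, as a gene family, from the 55401 genes listed in the compiled count table. They were followed in tibialis anterior (TA) muscle RNA from 6 mouse muscles, 3 given AAV-GFP and 3 given AAV-RBM20.

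Both groups were male C57BL/6 mice of the genotype HSA-MCM-Bmal1-/-, in which Cre driven by the human skeletal actin promoter removes the clock gene Bmal1 from skeletal muscle after tamoxifen. The mice were 12 to 16 weeks old and received tamoxifen on 5 days at 2 mg each day. Adeno-associated virus (AAV) went into the TA after 4 weeks, and the muscle was taken after another 4 weeks. AAV-RBM20 carried a mouse Rbm20 cDNA with a C-terminal HA tag under the CMV promoter and its dose exceeded that of AAV-GFP, so the transgene and the dose cannot be told apart. No muscle that kept Bmal1 was compared here, and the CMV promoter is not limited to muscle fibers. The whole frozen muscle was pulverized before RNA extraction, so every fiber type and every non-muscle cell of the TA contributes to each value, and fewer fibers of a type and less RNA per fiber cannot be told apart.

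Each muscle fiber is built mainly around a single adult myosin heavy chain, which largely sets how fast it contracts. Myh4 encodes the fastest chain of adult mouse muscle (type IIb), Myh1 the IIx chain, Myh2 the IIa chain and Myh7 the slow, or beta-cardiac, chain. Myh3 (embryonic) and Myh8 (neonatal, also called perinatal) are used during development and return in regenerating fibers, Myh6 encodes the alpha chain of atrial and ventricular heart muscle, and Myh7b an ancient chain found at low levels in slow and specialized muscle. The mouse TA is a fast muscle in which type IIb fibers predominate. RBM20 binds RNA and controls how titin (Ttn) transcripts are spliced, titin being the giant elastic protein that lies alongside the myosin filament.

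The 5 skeletal genes lie on mouse chromosome 11 on the plus strand within 230 kb, in the order Myh3, Myh2, Myh1, Myh4 and Myh8. Myh4 spans chr11:67238029-67260446 and Myh1 chr11:67200052-67224575 in GENCODE M21, an annotation of the mm10 build. Myh2 spans chr11:67171027-67197517 and ends 2.53 kb before Myh1. Myh3 (chr11:67078300-67102291) and Myh8 (chr11:67277124-67308634) are the first and last of the 5, and Myh13, which is not among the 8, follows Myh8. Myh6 (chr14:54941921-54966927) and Myh7 (chr14:54970684-54994626) are neighbors 3.76 kb apart on the minus strand, and Myh7b stands alone at chr2:155611212-155634307 on the plus strand.

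The sequences just before the starts of the clustered genes are shown because Myh1, Myh2, Myh4 and Myh8 share a run of letters there, whereas the levels of these genes differed greatly. Capitals mark the run TTCTAATTATATCC, found in the windows of the 4 genes, the run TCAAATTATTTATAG, found in those of Myh1, Myh4 and Myh8, and the TATA box letters TATAAAA. Each line ends at the base before the RefSeq start on the plus strand of GRCm38.p6.
Myh1, chr11:67199876-67200101: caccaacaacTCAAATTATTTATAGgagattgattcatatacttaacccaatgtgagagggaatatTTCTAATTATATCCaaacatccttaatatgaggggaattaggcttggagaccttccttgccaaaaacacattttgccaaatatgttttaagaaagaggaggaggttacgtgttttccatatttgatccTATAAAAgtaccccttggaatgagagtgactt
Myh4, chr11:67237615-67237811: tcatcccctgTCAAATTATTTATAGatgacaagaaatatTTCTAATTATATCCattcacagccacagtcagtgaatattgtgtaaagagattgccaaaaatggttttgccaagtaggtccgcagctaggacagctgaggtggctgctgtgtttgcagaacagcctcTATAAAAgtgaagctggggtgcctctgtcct
Myh8, chr11:67277010-67277123: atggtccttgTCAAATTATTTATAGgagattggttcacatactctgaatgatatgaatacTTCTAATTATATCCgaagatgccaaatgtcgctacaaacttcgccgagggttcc
Myh2, chr11:67170892-67171026: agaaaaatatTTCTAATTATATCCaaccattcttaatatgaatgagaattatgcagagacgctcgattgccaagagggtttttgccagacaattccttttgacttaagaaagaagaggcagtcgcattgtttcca
Myh3, chr11:67078180-67078299: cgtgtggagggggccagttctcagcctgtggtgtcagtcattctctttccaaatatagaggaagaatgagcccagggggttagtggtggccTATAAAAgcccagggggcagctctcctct

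Of 32851 RefSeq promoter windows of the same length (250 bases before to 50 after a start), 4 held the first run on either strand, and these belonged to the same 4 myosin genes. The second run occurred in 3 windows, those of Myh1, Myh4 and Myh8. The TATA box letters were far more common, in 5.48% of windows. They lay 31 bases before the start of Myh4, 32 before that of Myh1 and 29 before that of Myh3, while in the Myh2 window they lay past the annotated start and the Myh8 window held none. Neither of the shared runs occurred in the window of Myh3. The runs were found by searching these windows for common letters and are given as a description of the sequence.

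The RNA was depleted of ribosomal RNA and sequenced as stranded libraries of 41400132 to 54226618 counted reads, of which the 8 genes took 2.89% to 4.69%. Rbm20 itself was 164 to 170 CPM (read counts scaled to a common library size with TMM, edgeR's correction for library composition) with AAV-GFP and 406 to 545 with AAV-RBM20, in the direction of the labels, with the vector's cDNA and the native gene counted together. The libraries numbered 3 stood apart in both groups. Ttn took 4.48% of the counts in AAV-GFP replicate 3 and 9.05% in AAV-RBM20 replicate 3, against 16.9% to 17.8% in the other 4 libraries, and mitochondrial genes took 12.5% and 11.4% against 6.41% to 7.66%. Fold changes of the members, and other results that moved with this pair, are therefore also given without it. Same-numbered libraries deviated together from their group means, so the comparison was also fitted with that number as a blocking factor (the replicate block). The labels name no pairs, and the correlations do not fix how replicates 1 and 2 of the groups match. Counts over same-numbered pairs depend on that matching. Nothing in the labels says that the muscles of a group came from separate mice, and the p-values measure the spread between these samples.

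The adult fast genes made up nearly all myosin heavy chain RNA in each of the 6 libraries. Myh1, Myh2 and Myh4 together held 99.92% to 99.99% of the counts of the 8 genes. Per kilobase of merged exon, the mean level over the 6 libraries was 5107 CPM per kb for Myh4 (2523 to 6639), 1371 for Myh1 (564 to 2098) and 66.2 for Myh2 (4.43 to 111). Each of these stood above the next in 6 of 6 libraries, so the order of the fast genes was larger than the spread between samples. The other 5 genes lay between 0.25 and 0.616 CPM per kb on average, with Myh6 highest, then Myh3, Myh8, Myh7b and Myh7. Their order did not hold across libraries, since Myh6 was above Myh3 in 3 of 6, Myh3 above Myh8 in 5 of 6, and Myh8 above Myh7b and Myh7b above Myh7 in 4 of 6. The per-kilobase values depend on the annotated exons, which add up to 11.8 kb for Myh8 and 8.62 kb for Myh7 against 6.02 to 7.14 kb for the others.

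**Figure D1:**
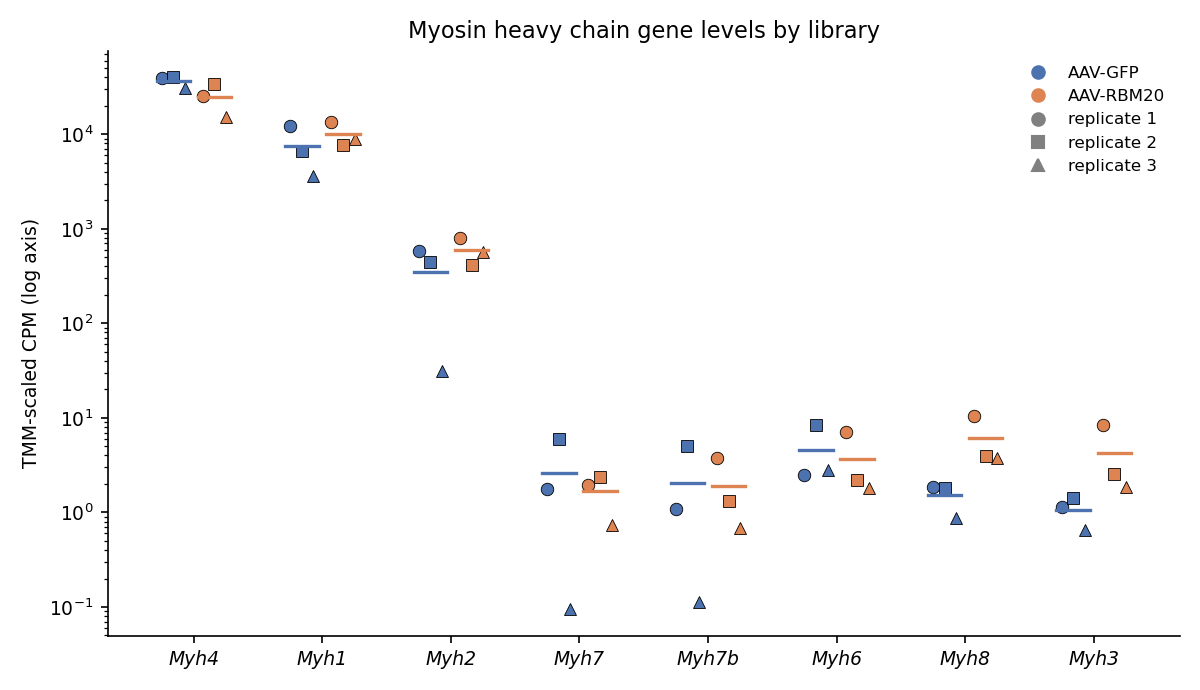
Level of each gene in TMM-scaled CPM on a log axis (y), by gene (x), for each AAV-GFP and AAV-RBM20 library; symbols give the replicate number and short lines the group means (n = 3). Myh4 lies between 15177 and 39941 CPM, Myh7 falls to 0.095 CPM in AAV-GFP replicate 3, and Myh8 and Myh3 are the genes whose groups do not overlap.

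Myh4, the IIb chain, was the most abundant gene of the family in each library and had the lower mean in the AAV-RBM20 muscles. Its level was 39043, 39941 and 30953 CPM in AAV-GFP replicates 1 to 3 and 25153, 34084 and 15177 CPM in AAV-RBM20 replicates 1 to 3. The groups overlapped, because AAV-RBM20 replicate 2 lay above AAV-GFP replicate 3, but Myh4 was lower in the AAV-RBM20 library of all 3 same-numbered pairs. The mean was 36646 ± 4950 CPM (SD, n = 3) against 24805 ± 9458 (n = 3). The log2 fold change was -0.56 ± 0.30 (SE) and did not pass the test (edgeR's quasi-likelihood test, Benjamini-Hochberg adjusted p = 0.657 over 17222 genes). With the replicate block it was -0.63 ± 0.20 (adjusted p = 0.178), and without the pair numbered 3 it was -0.41 ± 0.14 (adjusted p = 0.158). Leaving out AAV-RBM20 replicate 3 alone gave -0.30 and leaving out AAV-RBM20 replicate 2 gave -0.87.

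Myh1, the IIx chain and second in abundance, had the higher mean in the AAV-RBM20 muscles. It was measured at 12147, 6584 and 3585 CPM with AAV-GFP and at 13326, 7704 and 8906 CPM with AAV-RBM20. AAV-RBM20 was higher in each same-numbered pair, yet the groups overlapped, since AAV-GFP replicate 1 exceeded AAV-RBM20 replicates 2 and 3. The pair count would thus change with another matching of the libraries. The log2 fold change of 0.42 ± 0.42 did not pass the test (edgeR adjusted p = 0.772; 0.268 with the block). Without the pair numbered 3 it was 0.18 ± 0.56, less than its error, and leaving out single libraries moved it from 0.09 (without AAV-GFP replicate 3) to 0.97 (without AAV-GFP replicate 1).

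Myh2, the IIa chain, was set apart by a single library. Its level was 576, 445 and 31.6 CPM in the AAV-GFP replicates and 792, 416 and 574 CPM in the AAV-RBM20 replicates. AAV-GFP replicate 3 held far less Myh2 than the other 5 libraries, which ranged from 416 to 792 CPM. The log2 fold change was 0.76 ± 0.80 with all libraries (edgeR adjusted p = 0.788) and 0.25 ± 0.47 without the pair numbered 3, and 1.33 ± 1.28 with the replicate block.

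The makeup of the family gives the same 3 genes on a scale that does not depend on library size. Myh4 held 75.4%, 85.0% and 89.5% of the counts of the 8 genes with AAV-GFP and 64.0%, 80.7% and 61.5% with AAV-RBM20. The share was lower with AAV-RBM20 in each same-numbered pair, but AAV-RBM20 replicate 2 lay above AAV-GFP replicate 1. This pair count therefore depends on how replicates 1 and 2 are matched. The means were 83.3% ± 7.21 and 68.8% ± 10.5 (SD, n = 3 each), a difference of -14.6 percentage points (two-sided exact permutation p = 0.2, where 3 against 3 cannot go below 0.1). The difference was -7.84 points without the pair numbered 3 and between -10.9 and -20.6 points with single libraries left out. Counting error is small beside this spread, with a Wilson 95% interval of at most 0.0871 points on either side of a share, although it covers counting error only.

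Myh1 held most of the remainder. Its share was 23.5%, 14.0% and 10.4% with AAV-GFP and 33.9%, 18.3% and 36.1% with AAV-RBM20, a mean difference of 13.5 points (exact permutation p = 0.2), or 7.34 points without the pair numbered 3. Myh2 held 1.11%, 0.947% and 0.0915% against 2.01%, 0.986% and 2.33%, a difference of 1.06 points, or 0.471 without that pair. Shares of 1 total are not independent, so the lower Myh4 share and the higher Myh1 share are the same difference seen from both sides. The ratio of Myh1 to Myh4 per kilobase was 0.295, 0.156 and 0.110 with AAV-GFP and 0.502, 0.214 and 0.556 with AAV-RBM20. It was on average 2.28-fold higher (exact permutation p = 0.2), higher in 3 of 3 pairs and 1.53-fold higher without the pair numbered 3. As with the Myh4 share, the pair count depends on how the libraries are matched. The ratio of Myh2 to Myh1, in contrast, lay between 0.0422 and 0.0601 in 5 libraries and at 0.00786 in AAV-GFP replicate 3.

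**Figure D2:**
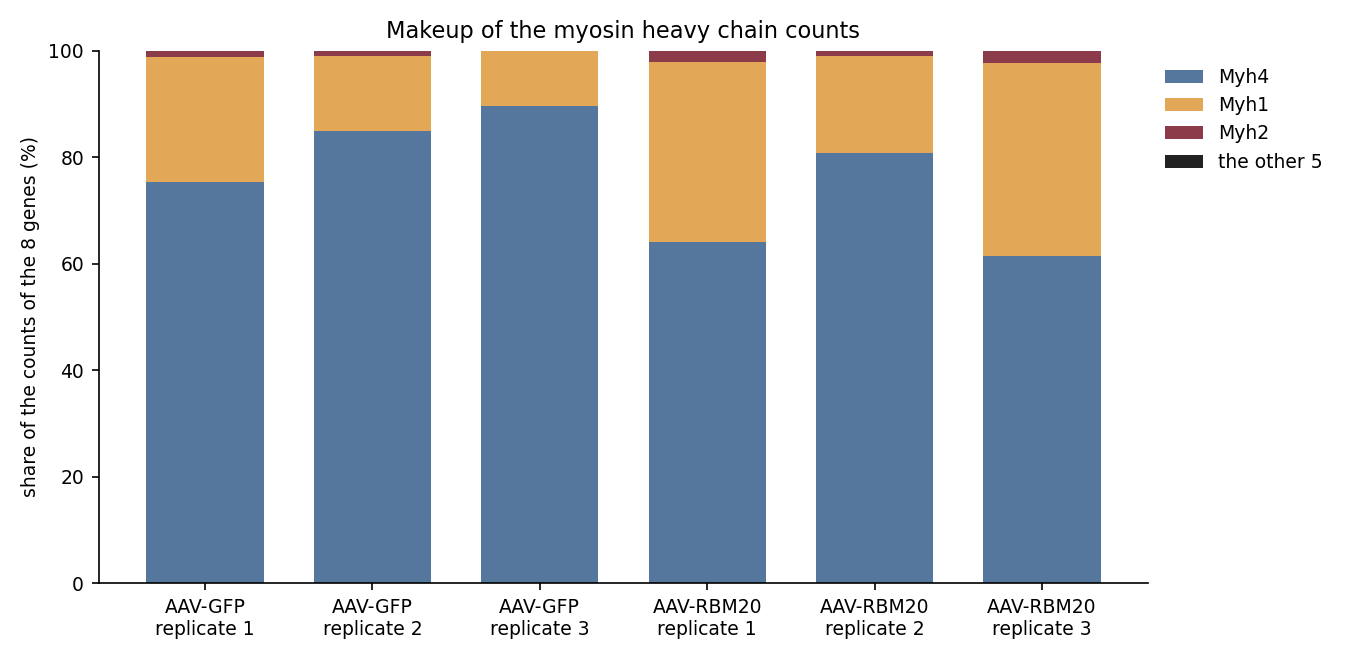
Share of the counts of the 8 genes (y, percent, from 0) held by Myh4, Myh1, Myh2 and the other 5 genes together in each library (x). Myh4 spans 75.4% to 89.5% with AAV-GFP and 61.5% to 80.7% with AAV-RBM20, and the other 5 genes are too rare to see, at 0.0131% to 0.0804%.

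Summed over the family, myosin heavy chain RNA was 51774, 46992 and 34574 CPM with AAV-GFP and 39302, 42217 and 24666 CPM with AAV-RBM20. The sum was lower with AAV-RBM20 in each pair and lowest in the library numbered 3 of either group, and the groups overlapped.

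The developmental genes Myh3 and Myh8 were the members whose AAV-RBM20 libraries all lay above all AAV-GFP libraries. Myh8 was measured at 1.87, 1.82 and 0.874 CPM with AAV-GFP and at 10.4, 3.98 and 3.81 CPM with AAV-RBM20. Myh3 was measured at 1.13, 1.44 and 0.646 CPM with AAV-GFP and at 8.38, 2.54 and 1.87 CPM with AAV-RBM20. AAV-RBM20 replicate 1 was the highest library for both genes and AAV-GFP replicate 3 the lowest. These levels rest on few reads, with 46 to 76 counts of Myh8 in an AAV-GFP library and 160 to 566 in an AAV-RBM20 library, and 34 to 60 against 91 to 457 counts of Myh3.

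The log2 fold change of Myh8 was 2.00 ± 0.47 and that of Myh3 2.00 ± 0.59. Neither passed the adjusted threshold in edgeR (adjusted p = 0.617 and 0.618), although the unadjusted p-values were 0.00281 and 0.00989. With the replicate block the values were 1.91 ± 0.27 for Myh8 (adjusted p = 0.0602) and 1.76 ± 0.39 for Myh3 (adjusted p = 0.111). DESeq2 gave 1.98 for each and put both past the threshold, with adjusted p = 0.00376 for Myh8 and 0.0485 for Myh3. Without the pair numbered 3 the log2 fold changes were 1.98 ± 0.62 and 2.11 ± 0.81. Without AAV-RBM20 replicate 1, the library highest for both, they were 1.37 for Myh8 and 1.05 for Myh3. Even so, the 2 genes together held only 0.0154% to 0.0477% of the family's counts with AAV-RBM20, against 0.00440% to 0.00693% with AAV-GFP.

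The ratio of Myh3 to Myh8 did not separate the groups. Per kilobase of merged exon the ratio was 1.18, 1.53 and 1.44 with AAV-GFP and 1.57, 1.24 and 0.956 with AAV-RBM20. These ranges overlapped (log2 difference -0.16, exact permutation p = 0.7).

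**Figure D3:**
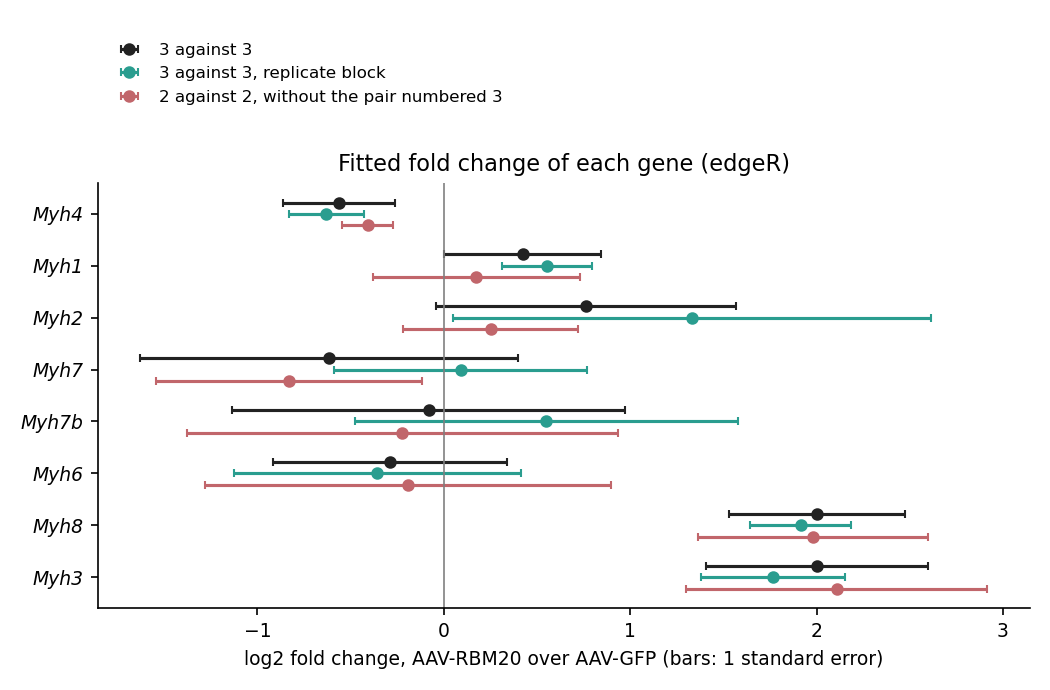
Fitted log2 fold change of AAV-RBM20 over AAV-GFP (x) for each gene (y) in edgeR, with bars of 1 standard error, for the 6 libraries, for the 6 libraries with the replicate block, and for the 4 libraries left without the pair numbered 3. Myh8 and Myh3 lie near 2 in the 3 fits, and Myh4 lies below 0 in the 3 fits. Myh2, Myh7, Myh7b and Myh6 have errors wider than their distance from 0 in the fit of the 6 libraries without the block.

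The slow and cardiac genes were scarce in this muscle, at under 10 CPM each. Myh7, the slow chain, was measured at 1.77, 5.97 and 0.095 CPM with AAV-GFP and at 1.96, 2.39 and 0.741 CPM with AAV-RBM20. Both libraries numbered 3 were the lowest of their group, and AAV-GFP replicate 3 held only 5 counts of Myh7. The log2 fold change of -0.62 ± 1.01 did not pass the test (edgeR adjusted p = 0.868) and turned to 0.09 with the replicate block. Without the pair numbered 3 it was -0.83 ± 0.71.

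Myh7b was measured at 1.08, 4.98 and 0.114 CPM with AAV-GFP and at 3.78, 1.32 and 0.680 CPM with AAV-RBM20. AAV-GFP replicate 2 was highest and AAV-GFP replicate 3 lowest, as for Myh7, and the log2 fold change was -0.08 ± 1.05 (edgeR adjusted p = 0.987), turning to 0.55 with the block and -0.22 ± 1.16 without the pair numbered 3. Myh6 was measured at 2.51, 8.39 and 2.81 CPM with AAV-GFP and at 7.13, 2.21 and 1.79 CPM with AAV-RBM20. Its high libraries were 1 in each group, and the log2 fold change of -0.29 ± 0.63 did not pass the test (edgeR adjusted p = 0.904) and was -0.19 ± 1.09 without the pair numbered 3. The 4 cardiac markers outside the family were near 0. Atrial natriuretic peptide (Nppa) and the atrial light chain Myl7 had no count in some libraries. The summed level of the 4 markers was 0.566 to 1.37 CPM with AAV-GFP and 0.672 to 1.12 CPM with AAV-RBM20. This did not hold for every cardiac gene, since cardiac actin (Actc1) ran from 39.4 CPM in AAV-GFP replicate 3 to 396 CPM in AAV-RBM20 replicate 2.

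Introns of these 3 genes hold microRNAs of muscle, shown here because their seeds (bases 2 to 8, in capitals) tie the hosts together. The mature sequences are from RefSeq on GRCm38.p6.
mmu-miR-208a-3p, in Myh6: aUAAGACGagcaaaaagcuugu
mmu-miR-208b-3p, in Myh7: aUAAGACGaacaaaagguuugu
mmu-miR-499-5p, in Myh7b: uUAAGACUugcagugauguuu

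The microRNAs of Myh6 and Myh7 share the seed UAAGACG, while that of Myh7b has UAAGACU. The gene entries of these microRNAs held no count in any library, apart from 2 counts of Mir208b in AAV-GFP replicate 2. Libraries of this kind do not capture mature microRNAs, so these entries say nothing of their levels.

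In all, 0 of the 8 genes passed the adjusted threshold in edgeR, where 0.0% of all 17222 genes did, and 0 of 8 with the replicate block, where 25 genes did (0.145%). Rbm20, which the vector carried, did not pass in edgeR either (log2 fold change 1.54 ± 0.15, adjusted p = 0.121). It passed with the block (edgeR adjusted p = 0.0107), without the pair numbered 3 (edgeR adjusted p = 2.28e-06) and in DESeq2 (adjusted p = 4.32e-15). A gene that did not pass in edgeR is therefore not shown to be unchanged. In DESeq2, 2 of 8 passed, both higher, where 0.362% of 19916 genes passed in either direction and 0.181% were higher. Of the other edgeR settings, the fit without the low-count filter called 0 of 8 (0.0269% of its genes) and the fit without the pair numbered 3 also 0 of 8 (4.0% of its genes). At an unadjusted p under 0.05 in edgeR, 2 of 8 were higher and none lower, against 4.08% and 3.82% of all genes. The groups did not overlap for 2 of 8 genes, both higher with AAV-RBM20, against 7.71% of all genes in that direction. The median log2 fold change of the 8 was 0.17 against 0.01 for all genes tested, and -0.01 without the pair numbered 3. Of the 8 genes, 6 had their lowest level in AAV-GFP replicate 3, as did 29.9% of all genes.

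The genes that build the fast contractile apparatus beside Myh4 had lower means in the AAV-RBM20 muscles, as Myh4 did. All 12 genes of the fast fiber list had a negative log2 fold change, with a median of -0.47 (8 of 12 and -0.20 without the pair numbered 3), and for 7 of 12 the AAV-RBM20 libraries all lay below the AAV-GFP libraries, against 9.04% of all genes. None passed the adjusted threshold in edgeR, and 4 of 12 were lower at an unadjusted p under 0.05, against 3.82% of all genes. Without the pair numbered 3, 3 of 12 passed, all lower, where 4.0% of all genes passed in either direction. Fast troponin C (Tnnc2), the calcium sensor of the thin filament, was measured at 1962, 1859 and 2657 CPM with AAV-GFP and at 1159, 1306 and 1332 CPM with AAV-RBM20. Each AAV-RBM20 library lay below each AAV-GFP library (log2 fold change -0.77 ± 0.18, edgeR adjusted p = 0.617, 0.0811 with the block, 0.00276 without the pair numbered 3). For fast troponin I (Tnni2), the inhibitory subunit, the values were 2181, 2079 and 3226 CPM against 1389, 1570 and 1803 CPM, again without overlap (log2 fold change -0.65 ± 0.21, edgeR adjusted p = 0.618, 0.00693 without the pair numbered 3). AAV-GFP replicate 3 was the highest library for both troponins and for all other genes of this list except Atp2a1. For Myh4, in contrast, it was the lowest AAV-GFP library, at 30953 CPM.

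The slow fiber list showed the opposite sign in most members, with AAV-GFP replicate 3 at the low end of nearly all of them. Of its 12 genes, 11 had a positive log2 fold change (median 0.44), but 7 did without the pair numbered 3 (median 0.30). In edgeR, 0 passed the adjusted threshold with or without that pair, and 3 were higher at an unadjusted p under 0.05, against 4.08% of all genes. AAV-GFP replicate 3 was the lowest library for 11 of 12. Slow troponin I (Tnni1) was measured at 0.492, 1.25 and 0.323 CPM with AAV-GFP and at 3.59, 1.17 and 1.81 CPM with AAV-RBM20, where a single AAV-GFP library reached into the AAV-RBM20 range (log2 fold change 1.69 ± 0.59, edgeR adjusted p = 0.618). Slow troponin T (Tnnt1), which anchors the troponin complex, had a log2 fold change of 0.86 ± 0.83 (edgeR adjusted p = 0.763). The groups did not overlap for 1 of the 12 genes, Mybpc1, the slow myosin-binding protein C, at 1536, 1541 and 1350 CPM against 2196, 1748 and 2317 CPM, which was named after its values were seen. Over all genes, 7.71% were higher without overlap.

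**Figure D4:**
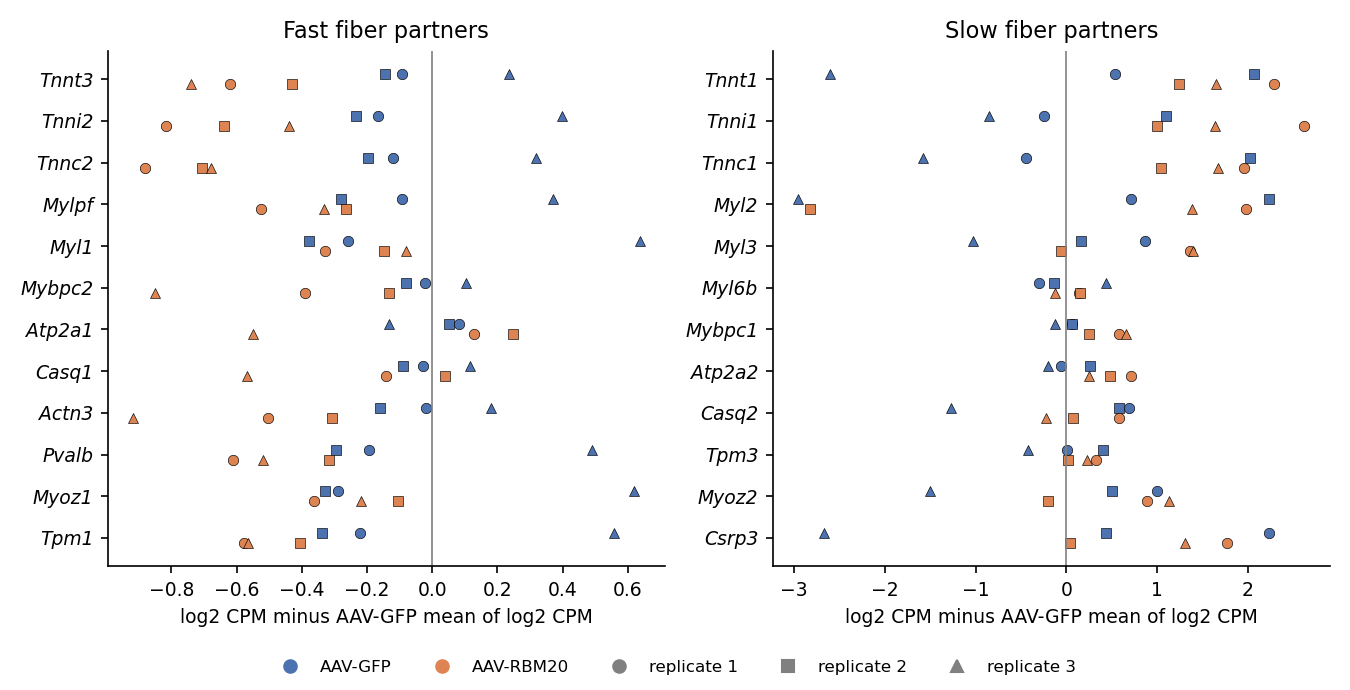
Level of each fast (left) and slow (right) fiber partner gene (y) as log2 CPM minus the mean log2 CPM of the AAV-GFP libraries (x); colors give the group and symbols the replicate number. The x axes of the panels differ in range. AAV-GFP replicate 3 is the lowest library for 11 of the 12 slow genes and for none of the 12 fast genes. It is the highest library for all fast genes except Atp2a1.

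Genes that fold, assemble and cross-link the thick filament showed no common direction. Of 12, 6 had a positive and 6 a negative log2 fold change (median -0.03), 0 passed the adjusted threshold in edgeR and 3 had lower AAV-RBM20 libraries without overlap, against 9.04% of all genes. Mybph, a myosin-binding protein related to myosin-binding protein C, had the largest difference at 1.20 ± 0.80 (edgeR adjusted p = 0.684), followed by -0.54 ± 0.15 for Trim54, a microtubule- and sarcomere-associated ubiquitin ligase (edgeR adjusted p = 0.618, 0.00819 without the pair numbered 3).

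Among 16 transcription factors and cofactors of fiber type, 0 passed the adjusted threshold in edgeR, the median log2 fold change was -0.04, and the groups did not overlap for 2 that were higher and 5 that were lower, against 7.71% and 9.04% of all genes. Mafa, a large Maf transcription factor, was measured at 70.5, 76.9 and 49.4 CPM with AAV-GFP and at 45.6, 57.5 and 29.0 CPM with AAV-RBM20. It was lower in each same-numbered pair, with overlap between the groups (log2 fold change -0.58 ± 0.27, edgeR adjusted p = 0.641, 0.0761 with the block). Vgll2, a cofactor of the TEAD factors, had the opposite sign without overlap, at 28.1, 26.0 and 33.6 CPM against 48.9, 37.4 and 41.2 CPM (log2 fold change 0.54 ± 0.15, edgeR adjusted p = 0.618, 0.0411 without the pair numbered 3).

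The other developmental sarcomere genes did not separate the groups as Myh3 and Myh8 did. The log2 fold changes were 0.85 ± 0.41 for Myl4, the embryonic light chain, and 0.46 ± 0.41 for Tnnt2, the cardiac and embryonic troponin T, and the groups overlapped for all 3 genes of the list (edgeR, 0 of 3 past the adjusted threshold). In the list of regeneration and denervation genes, 11 of 14 were abundant enough to be tested and 0 passed in edgeR, with a median log2 fold change of 0.39. The groups did not overlap for 3 that were higher and 2 that were lower, against 7.71% and 9.04% of all genes. Runx1, a transcription factor known to be raised in denervated muscle, was measured at 4.77, 6.01 and 5.95 CPM with AAV-GFP and at 13.8, 12.4 and 13.6 CPM with AAV-RBM20. The groups were far apart and the replicates close (log2 fold change 1.25 ± 0.15, edgeR adjusted p = 0.257), and Runx1 was the gene of this list that passed with the replicate block (adjusted p = 0.0271). It also passed without the pair numbered 3 (edgeR adjusted p = 0.000978). Ncam1, an adhesion molecule of myoblasts, satellite cells and denervated fibers, had a log2 fold change of 0.70 ± 0.18 without overlap (edgeR adjusted p = 0.618, 0.0054 without the pair numbered 3). The members that were lower without overlap, named after their values were seen, were Cdh15, the M-cadherin of satellite cells, at -0.49 ± 0.15 (edgeR adjusted p = 0.618, 0.0336 without the pair numbered 3), and the myogenic factor Myod1, at -0.32 ± 0.11 (edgeR adjusted p = 0.618, 0.0534 without that pair). Of the rest, Mymk and Mymx, the fusion proteins of new fibers, and the fetal acetylcholine receptor subunit Chrng were too low to be tested.

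The non-sarcomeric and specialized myosin heavy chains of the same class gave 5 tested genes of 6, of which 0 passed in edgeR (median log2 fold change -0.04). The largest differences in the list by size were 0.20 ± 0.27 for Myh10 and 0.16 ± 0.21 for Myh9, both non-muscle chains (edgeR adjusted p = 0.833 and 0.835). All 5 tested genes of this list had their lowest level in AAV-GFP replicate 3.

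Markers of other cells of the muscle differed between libraries as well. The summed level of 6 macrophage markers was 25.4 to 85.0 CPM with AAV-GFP and 56.4 to 121 CPM with AAV-RBM20, and that of 4 fibro-adipogenic progenitor markers 469 to 983 CPM against 808 to 1039 CPM. Both sums overlapped between the groups but were higher with AAV-RBM20 in 3 of 3 same-numbered pairs. All 6 macrophage markers were higher in 3 of 3 pairs, but only 1 of the 4 progenitor markers was. None of these markers passed in edgeR with the 6 libraries, while 5 of 6 macrophage and 3 of 4 progenitor markers passed without the pair numbered 3, all higher. In that fit, 4.0% of all genes passed in either direction. Satellite cell markers summed to 24.9 to 28.6 CPM against 17.4 to 25.6 CPM, lower with AAV-RBM20 in 3 of 3 pairs. Cdh15 held most of this sum. Pax7 went the other way, at 4.575, 3.905 and 2.983 CPM against 6.489, 4.553 and 3.439 CPM. It was higher in 3 of 3 pairs, with overlap (log2 fold change 0.34 ± 0.27, edgeR adjusted p = 0.727). Myf5 was lower in 2 of 3 pairs (log2 fold change 0.15 ± 0.28). Of 3 muscle spindle markers, Egr3 was higher without overlap, at 0.590, 0.455 and 0.380 CPM against 1.21, 0.697 and 1.13 CPM (edgeR adjusted p = 0.618). Over all genes, 7.71% were higher without overlap. Etv4 overlapped but was higher in 3 of 3 pairs (edgeR adjusted p = 0.618, 0.0196 without the pair numbered 3). Etv1 had a log2 fold change of -0.01 ± 0.23. The 5 muscle fiber markers summed to 55319 to 67269 CPM against 44107 to 63799 CPM. The part of these cells in the myosin values was not tested.

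The genes whose pattern over the 6 libraries was nearest to each member were found by the root mean square difference of centered log2 CPM over the 11555 genes whose mean log2 CPM was 1 or more. Nearest to Myh4 was Mafa, at 0.096 log2 units, followed by Shisa2 (0.158) and Ampd1 (0.163), the AMP deaminase of skeletal muscle. For comparison, the spread of Myh4 itself over the libraries was 0.524. Nearest to Myh3 was Myh8, at 0.246 log2 units against a spread of 1.23, followed by Ttc9 (0.516) and Tmem88b (0.574), and nearest to Myh8 were Cyfip2 (0.452), Ttc9 (0.456) and Arpp21 (0.483). Myh3 was not a candidate for Myh8 because its mean level was under the minimum.

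The nearest genes to Myh2 were Csrp3 (0.547) and Myom3 (0.565), structural proteins of the Z-disc and M-band, and C230053D17Rik (0.592), and all 3 were also lowest in AAV-GFP replicate 3. Csrp3 was measured at 33.0, 9.54 and 1.10 CPM with AAV-GFP and at 23.9, 7.22 and 17.5 CPM with AAV-RBM20, and Myom3 at 60.4, 25.9 and 1.92 CPM against 63.0, 26.6 and 16.6 CPM. Nearest to Myh1 were AC132307.1 (0.104), Smtnl1 (0.12), a smoothelin-like protein of muscle, and Gm47920 (0.139). Myh7 and Myh7b shared the long noncoding RNA Neat1 (0.70 and 0.791) and Gm37033 (0.718 and 0.794) among their nearest 3 genes, the others being Gm36933 for Myh7 (0.715) and Gm21887 for Myh7b (0.718). Neat1 was 281.6 CPM in AAV-GFP replicate 3 and 841 CPM in AAV-RBM20 replicate 3 against 2507 to 2818 CPM in the other 4 libraries. The nearest genes to Myh6 were Adcy1, Cyp4b1 and Sh2d6, at 0.561 to 0.595. These distances describe 6 libraries that share groups and depth differences.

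Reads from similar or overlapping genes limit how exactly the members can be told apart. Of the 100-base stretches of the longest transcript, 9.46% of Myh1, 9.17% of Myh2, 3.85% of Myh4 and 5.17% of Myh8 occurred unchanged in another member, as did 11.4% of Myh6 and 11.2% of Myh7, but none of Myh3 or Myh7b. Values of the former group are uncertain to the extent that such reads were split or dropped in counting. Myhas, a noncoding gene on the minus strand, overlaps 515 exon bases of Myh1 and was measured at 74.4, 75.1 and 72.1 CPM with AAV-GFP and at 49.95, 69.7 and 40.9 CPM with AAV-RBM20. Its AAV-RBM20 libraries all lay below the AAV-GFP libraries, whereas the mean of Myh1 was higher (log2 fold change of Myhas -0.47 ± 0.19, edgeR adjusted p = 0.618, and -0.32 ± 0.18 without the pair numbered 3). The strand setting of the counting is not given in the sources used here, so reads of the sense and antisense genes may be mixed. Also on the opposite strand, Trpc4ap (4637 to 6813 counts) overlaps 37 exon bases of Myh7b, which had 6 to 208 counts. For Myh2, 9430073C21Rik (87 to 367 counts) overlaps 237 exon bases. The antisense genes of Myh7, among them Mhrt, had 0 to 3 counts in any library.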

How the data were processed

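RNA from 3 AAV-GFP and 3 AAV-RBM20 TA muscles was sequenced as rRNA-depleted stranded libraries. HISAT2 (mm10) and HTSeq were the authors' aligner and read counter, per the labels, and the raw gene counts they deposited were used for all values. The annotation release, the strand setting and the tool versions are not given in the sources used here. A second deposited table holds normalized signal, which equals the counts divided by 1 constant size factor per library, and was used only for that check. The authors' DESeq2 comparison was not used.

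Gene identifiers were matched to GENCODE M21, which named 55141 of 55401. The main test was edgeR 4.0.16 (quasi-likelihood, TMM, filterByExpr) on the 6 libraries without covariates, with Benjamini-Hochberg adjustment over the 17222 genes left by the filter and a threshold of 0.05. CPM values are TMM-scaled, and a standard error is the size of the log2 fold change over the square root of its F statistic. The script was tested on simulated counts with known changes. Those counts had a fixed dispersion and no deviating libraries, so they check the script and not its power in these data. Alternatives were the replicate block, DESeq2 1.42.0, limma 3.58.1 with voom, a newer edgeR quasi-likelihood setting, other scalings, other filters, counts without abundant genes, each library left out, and the pair numbered 3 left out. Shares were compared with two-sided exact permutation tests over the 20 splits of 3 against 3.

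Library titles number the replicates 1 to 3 in both groups, and same-numbered libraries deviated from their group means together (correlations of 0.418, 0.201 and 0.484). Across the first 2 numbers, the second AAV-GFP library correlated with AAV-RBM20 replicate 1 at 0.216 and the first with AAV-RBM20 replicate 2 at 0.131, so the matching within the first 2 pairs is not fixed by these values. The pairing comes from these correlations, since the labels name no shared mouse, batch or day and a second label numbers the AAV-RBM20 libraries on from the AAV-GFP ones. The lane list of the paper's blots gives, under some shared numbers, a left muscle with AAV-RBM20 and a right muscle with AAV-GFP. It does not link those muscles to the sequenced libraries. Chi-square per gene between replicates of a group was 15.1 to 545, so no library was a copy of another.

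The 8 members and the gene lists were chosen with earlier results of these data known. The genes named were all 8 members, Rbm20 and Ttn, and the 3 genes nearest in pattern to each member. From each list they were the genes past the threshold or otherwise the 2 with the largest log2 fold change by size. Genes that overlap a member were also named, but not all of them. Mybpc1, Mymk, Mymx, Chrng, Cdh15, Myod1, Nppa, Myl7, Pax7, Myf5, Egr3, Etv4, Etv1 and Actc1 were named beyond this rule. Promoter and microRNA sequences are from RefSeq on GRCm38.p6, where all 8 members had a promoter window. Counts limit precision through sampling error only, which 41400132 to 54226618 reads a library keep small except for Myh3, Myh6, Myh7, Myh7b and Myh8.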

Additional observations from a re-analysis of the deposited data

How the results depend on the processing

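Over 16 alternatives for each of the 8 genes, 116 of 128 log2 fold changes kept their sign and their side of the threshold, 2 passed it and 10 reversed. The number of the 8 genes past the threshold was 0 in edgeR and in each of 15 alternatives, and 2 in DESeq2. Among the genes of the partner and fiber lists, 0 passed in edgeR, 1 with no low-count filter, 1 with the replicate block, 2 in DESeq2 and 9 without the pair numbered 3. Over all genes, the count of calls was 0 in edgeR, 25 with the replicate block, 72 in DESeq2, 8 with no low-count filter and 690 without the pair numbered 3, and at an unadjusted p under 0.05 edgeR had 702 genes higher and 658 lower. The replicate block changed no call of the 8 genes.

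The signs of the scarce genes were not stable. With the replicate block, the log2 fold change of Myh7 was 0.090 and that of Myh7b 0.55, and with limma-voom they were 0.72 and 0.99. Leaving out single libraries moved Myh6 between -1.19 and 0.48, Myh7 between -1.20 and 0.88 and Myh7b between -1.04 and 1.72, with sign changes without AAV-GFP replicate 2 for each of them, without AAV-RBM20 replicate 3 for Myh6 and Myh7b, and without AAV-RBM20 replicate 2 for Myh7b. Over the same settings Myh4 stayed between -0.87 and -0.30, Myh8 between 1.37 and 2.26 and Myh3 between 1.05 and 2.37. Among the shares, Myh6 reversed to 5.17e-05 points per kilobase, 0.0003483 points without the pair numbered 3 and 0.28 as a log2 ratio to Myh4, and Myh7 to 1.23 as a log2 ratio to Myh4. Leaving out a library gave -0.00402 to 0.00373 points for Myh6, -0.00351 to 0.00270 for Myh7 and -0.00140 to 0.00395 for Myh7b. The cause was not tested. With 3 libraries a group the exact test cannot pass 0.05, and counts of 5 to 566 limit the genes other than Myh1, Myh2 and Myh4.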
